A study of Mus musculus with 6 samples.

Results

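Immediate early genes are switched on within a short time of a stimulus, without new protein synthesis. The 10 genes described here, of 54385 rows in the deposited table, are Fos, Fosb, Jun, Junb and Jund, whose proteins pair into the transcription factor AP-1, with Egr1, Atf3, Klf4, Dusp1 and Ier2. They were chosen by name, and all 10 had a row in the table. Total RNA was sequenced from the interscapular brown fat, a heat-producing depot, of C57BL/6N mice at 20 weeks of age. ADCY3∆AT mice, which lack the truncated AT isoform of adenylyl cyclase 3 (a cyclic AMP-producing enzyme), were set against wild-type (wt/wt) mice. Both groups had chow up to 8 weeks of age and then a high-fat diet for 12 weeks, and both were held at 4 °C for 24 h, so no library comes from a mouse at room temperature. There were 3 libraries of each genotype. Nothing in the labels says whether numbered replicates come from different mice, and p-values therefore reflect library-to-library spread only, some of which may be technical.

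AP-1 is a pair of proteins joined by leucine zippers. Fos proteins pair only with a partner such as Jun, while Jun proteins also pair with themselves. Fos, Fosb, Junb and Egr1 are known to be induced through serum response factor and through CREB, the factor that protein kinase A phosphorylates when cyclic AMP rises. Jund is known for steady expression in resting cells. Atf3 is a stress-induced relative of the AP-1 proteins, Klf4 is a zinc-finger transcription factor, Dusp1 is a phosphatase that switches off MAP kinases and so limits the response, and Ier2 is a small nuclear protein of the same early wave. In brown fat, noradrenaline released in the cold raises cyclic AMP in the adipocytes.

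CREB binds the cyclic AMP response element, TGACGTCA, and its core TGACG, so the windows before the transcription starts were searched for these letters. The set of RefSeq windows used here (GRCm38.p6) covered 8 of the 10 genes. It held none for Egr1 or Ier2, so nothing below applies to these genes. In each window the 250 bases before the start were searched on both strands. The core TGACG was found in the windows of Fos, Fosb, Junb, Atf3, Klf4 and Dusp1, which is 6 of 8, against 17.8% of all 32851 windows of that length. The full TGACGTCA, which contains the core on each strand, was found only in the window of Dusp1 and in 1.55% of all windows. None of the 8 windows held TGANTCA, the AP-1 site with any base at its centre (6.75% of all windows), a CArG box, the site of serum response factor (1.47%), or GCGTGGGCG, an Egr1 site (0.536%). A match describes the letters and is not a measured binding site, and no match says only that these letters are not in this window. The window of Jund lies before a RefSeq start that is upstream of the gene start in GENCODE M21. Those of Atf3 and Dusp1 lie inside the GENCODE M21 gene, downstream of its outermost start. They hold 7 and 47 annotated exonic bases of Atf3 and Dusp1, and the window of Fosb holds 6 of Fosb, so these windows are not wholly untranscribed sequence. All sites found are shown because they differ between the genes, 5′ to 3′ on the strand of the gene, with the core or the full element in capitals.
Fos, the whole window, chr12:85473640-85473889, plus strand, cores at positions -129 and -66 from the start: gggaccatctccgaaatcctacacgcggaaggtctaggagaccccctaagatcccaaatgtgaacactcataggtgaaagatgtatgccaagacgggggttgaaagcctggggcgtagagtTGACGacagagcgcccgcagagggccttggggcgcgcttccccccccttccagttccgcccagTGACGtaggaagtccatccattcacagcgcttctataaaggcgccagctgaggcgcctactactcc
Fosb, chr7:19310091-19310115, minus strand, position -60: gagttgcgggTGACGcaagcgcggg
Junb, chr8:84978840-84978864, minus strand, position -106: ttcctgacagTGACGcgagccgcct
Atf3, chr1:191183334-191183350, minus strand, position -7: aatagcattaCGTCAgc
Klf4, chr4:55532693-55532717, minus strand, position -232: gcctggctggCGTCAcggcctggcc
Dusp1, chr17:26508649-26508673, minus strand, position -191: cctaggccgaTGACGtctttgcttt
Dusp1, chr17:26508598-26508625, minus strand, position -143: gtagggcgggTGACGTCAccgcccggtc

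Library totals ranged from 44826777 to 54933588 estimated counts, and wild type replicate 1 was the deepest. Levels are in CPM, the usual depth-scaled unit, after TMM scaling. The targeted gene Adcy3 averaged 399 ± 92.7 CPM in ADCY3∆AT and 686 ± 38.7 CPM in wild type (SD, n = 3 each). A further row, ENSMUSG66666620654, is in no annotation used here. It was listed at 0 in every ADCY3∆AT library and had 629, 552 and 477 CPM in wild type. Brown adipocyte markers were abundant in every library, with Ucp1 at a mean of 10092 CPM in ADCY3∆AT and 10486 CPM in wild type. ADCY3∆AT replicate 1 stood apart in skeletal muscle transcripts: the summed level of 10 muscle markers was 225, 432 and 525 CPM in ADCY3∆AT and 964, 738 and 1525 CPM in wild type, and Ckm and Myh7 were listed at 0 in ADCY3∆AT replicate 1. Mb alone gave most of the ADCY3∆AT sums, with 223.3, 362.6 and 359.2 CPM in ADCY3∆AT and 404.1, 354.1 and 423.5 CPM in wild type. The other markers therefore differed more between the groups than the sum does. In bulk tissue, fewer cells of a type and less RNA per cell cannot be told apart.

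The genes lay at very different levels. Per kilobase of merged exons, Jund was the most abundant, with 36.1 ± 1.81 CPM per kilobase in ADCY3∆AT and 30.6 ± 1.13 in wild type (SD, n = 3 each). Jun followed with 12.8 ± 1.40 in ADCY3∆AT and 11.02 ± 0.994 in wild type. The lowest Jund library lay above the highest Jun library, and the lowest Jun library above the highest Dusp1 library. Dusp1, Klf4, Junb, Ier2 and Atf3 came next, with medians over the 6 libraries of 7.83, 7.51, 6.42, 5.64 and 3.89 CPM per kilobase, and each overlapped its neighbour in this order.

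Egr1 (median 0.497 CPM per kilobase), Fos (0.465) and Fosb (0.0319) were far lower. The ranges of Egr1 and Fos overlapped, while Fosb lay under both in every library. Exons were merged over all annotated transcripts of a gene (6243 bases for Fosb), so a gene with long rare transcripts is placed too low in this order. The Jun family summed to 55.8, 55.9 and 55.6 CPM per kilobase in ADCY3∆AT and 50.1, 45.9 and 46.2 in wild type, with no overlap between the groups. Fos and Fosb together had 1.03, 0.445 and 0.571 CPM per kilobase in ADCY3∆AT and 0.671, 0.284 and 0.412 in wild type. Transcripts of the Jun family thus outnumbered those of Fos and Fosb by 54.1-fold to 162-fold. This is not the whole Fos family, since Fosl2, which is not among the members, is left out. Fosl2 had 43.8, 42.5 and 50.7 CPM in ADCY3∆AT and 48.8, 36.8 and 41.5 CPM in wild type, not scaled for length. Jund made up 62.1% to 68.2% of the Jun family sum, Jun 20.2% to 25.2% and Junb 10.7% to 13.8% over the 6 libraries.

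**Figure D1:**
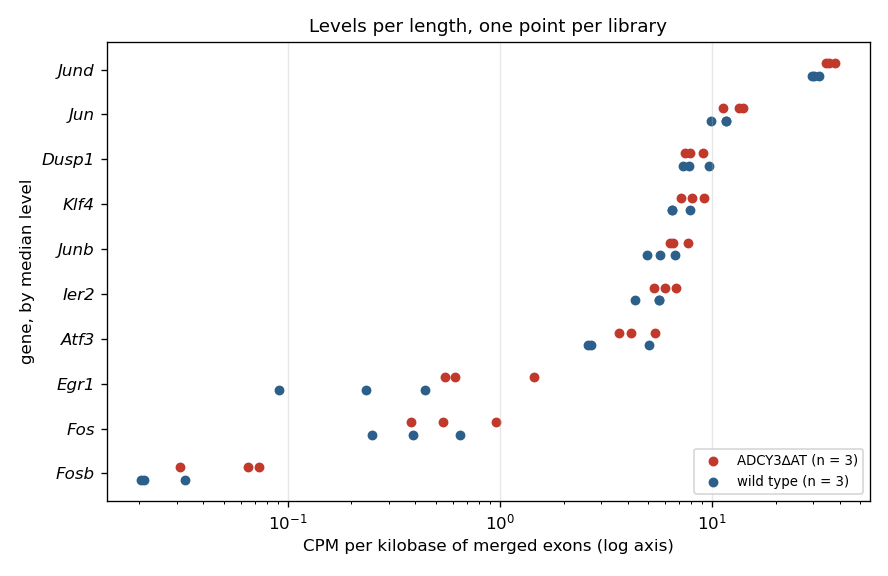
CPM per kilobase of merged exons on a log axis for each gene, ordered by the median over 6 libraries, with 1 point per library and ADCY3∆AT above wild type. Jund lies highest and Fosb lowest, and the points of Egr1 spread most widely.

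No member passed the test. Genes were tested with edgeR's quasi-likelihood test at an adjusted p under 0.05, and 9 of the 10 passed its filter on low counts, with Fosb left out. Of these 9, 0 passed in edgeR, where 0.00552% of the 18114 genes tested did, and 0 passed in DESeq2, where 1.17% of 19841 genes did, or in limma voom. At an unadjusted p under 0.05 in edgeR there were 3 of 9, namely Egr1, Jund and Jun, all higher in ADCY3∆AT, where 11% of all genes had such a p in either direction with 5.23% higher and 5.78% lower. The fold change was positive for 8 of the 9, against 50.9% of all genes, and the median log2 fold change was 0.24, against 0.00 over all genes. For Egr1 and Jund all 3 ADCY3∆AT libraries lay above all 3 wild-type libraries, which is 2 of 9, where 16.5% of all genes had groups that do not overlap 7.68% with ADCY3∆AT higher and 8.83% with it lower. All members were read in the same 6 libraries, so these counts are not independent observations.

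Egr1, an inducible zinc-finger activator (GRCm38 chromosome 18, 34859823 to 34864984, plus strand), had the widest differences between libraries. Its estimated counts were 298, 135 and 115 in ADCY3∆AT and 109, 18 and 48 in wild type, which gave 6.52, 2.74 and 2.47 CPM in ADCY3∆AT against 1.99, 0.409 and 1.05 CPM in wild type. Every ADCY3∆AT library lay above every wild-type library, but ADCY3∆AT replicate 3 and wild type replicate 1 were close. Exact Poisson 95% intervals of these closest counts were 94.9 to 138 for ADCY3∆AT replicate 3 and 89.5 to 131 for wild type replicate 1, and cover counting error only. These intervals are not scaled for depth, and wild type replicate 1 was the deeper library. The means were 3.91 ± 2.26 CPM in ADCY3∆AT and 1.15 ± 0.793 CPM in wild type (SD, n = 3 each).

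Of all the members, Egr1 alone showed single-library excursions, taken as a gap of at least 1 in log2 CPM (2-fold) between the extreme library and the next. Its highest library, ADCY3∆AT replicate 1, lay 1.24 above the next, and its lowest, wild type replicate 2, lay 1.28 below the next. A gap of at least 1 was found above the next library in 0.58% of all genes tested and below it in 1.92%. Egr1 had a log2 fold change of 1.74 ± 0.54 (SE), with an edgeR unadjusted p of 0.0120 and adjusted p = 0.313. Without ADCY3∆AT replicate 1 it was 1.16 (edgeR unadjusted p = 0.0543), without wild type replicate 2 it was 1.35 (0.0264), and without wild type replicate 1 it was 2.41 (0.00373).

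Fos (chromosome 12, 85473890 to 85477273, plus strand) followed the same library order at its extremes. It had 2.25, 0.894 and 1.27 CPM in the ADCY3∆AT libraries and 1.53, 0.590 and 0.919 CPM in wild type. ADCY3∆AT replicate 1 was highest and wild type replicate 2 lowest, as for Egr1, and the groups overlapped. The means were 1.47 ± 0.701 CPM in ADCY3∆AT and 1.01 ± 0.477 CPM in wild type (SD, n = 3 each). Fos had a log2 fold change of 0.52 ± 0.42 (SE, edgeR adjusted p = 0.697). It was 0.08 without ADCY3∆AT replicate 1, 0.25 without wild type replicate 2 and 0.96 without wild type replicate 1, so its size rests on single libraries.

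Fosb (chromosome 7, 19302696 to 19310051, minus strand) was counted in few reads, with 21, 20 and 9 estimated counts in ADCY3∆AT and 7, 9 and 6 in wild type. The highest counts belonged to ADCY3∆AT replicates 1 and 2, while ADCY3∆AT replicate 3 and wild type replicate 2 had equal rounded counts. In CPM these were 0.459, 0.406 and 0.194 in ADCY3∆AT against 0.128, 0.204 and 0.131 in wild type. Exact Poisson 95% intervals were 13 to 32.1 for the count of ADCY3∆AT replicate 1 and 4.12 to 17.1 for that of wild type replicate 2, and they overlap. Without the low-count filter the log2 fold change was 1.19 ± 0.51 (SE, edgeR unadjusted p = 0.0334, adjusted p = 0.520), in a fit where 8.39% of 30714 genes had an unadjusted p under 0.05 and 0.697% passed. Fosb passed the filter in 4 of the fits that leave out 1 library, with log2 fold changes from 1.07 to 1.48 and no adjusted p under 0.177 in edgeR. It did not pass without ADCY3∆AT replicate 1 or without ADCY3∆AT replicate 2. Fosb thus entered these fits only through the group where it was high, so their fold changes cannot be read as support for a difference.

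**Figure D2:**
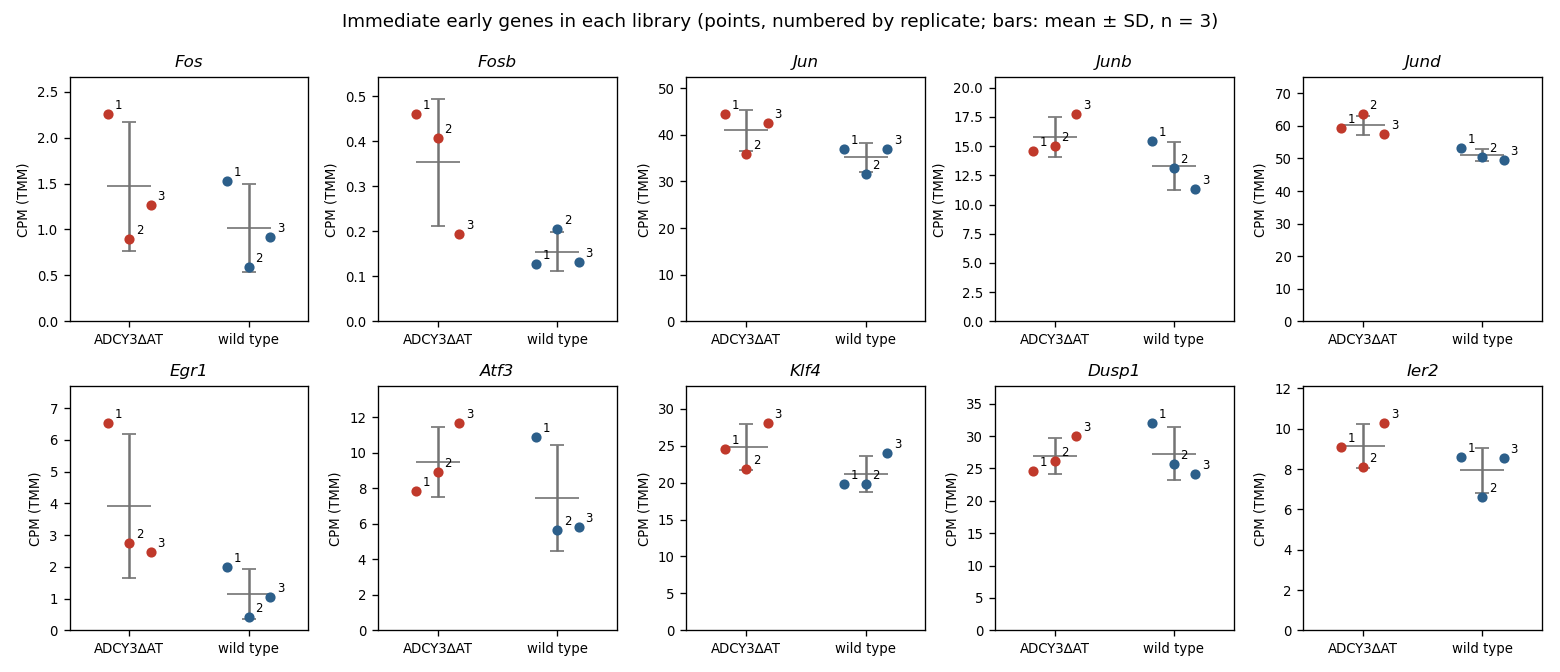
CPM of each gene in each library, with points numbered by replicate, ADCY3∆AT on the left and wild type on the right, and the mean ± SD of 3 libraries as bars. The groups are separate only for Jund and Egr1, and Egr1 of ADCY3∆AT replicate 1 stands at 6.52 CPM.

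Jund (chromosome 8, 70698949 to 70700616, plus strand), the most abundant of the 5 AP-1 subunits here, showed the smallest spread. It had 59.3, 63.5 and 57.7 CPM in ADCY3∆AT and 53.1, 50.5 and 49.4 CPM in wild type. Its groups did not overlap, and no single library set the difference. The means were 60.2 ± 3.02 CPM in ADCY3∆AT and 51.0 ± 1.88 CPM in wild type (SD, n = 3 each). The log2 fold change was 0.24 ± 0.06 (SE), with an edgeR unadjusted p of 0.00271 and adjusted p = 0.216. Leaving out each library in turn gave log2 fold changes from 0.20 to 0.27, with edgeR unadjusted p-values from 0.00298 to 0.0132. Over 877 of its 1668 exonic bases Jund overlaps the antisense gene Gm11175, and the sources used here do not say whether the counting used strand. Gm11175 had 0 to 0.366 CPM in ADCY3∆AT and 0.128 to 0.197 CPM in wild type.

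Jun, the founding member of the family (chromosome 4, 95049034 to 95052222, minus strand), had 44.4, 35.9 and 42.6 CPM in ADCY3∆AT and 36.9, 31.5 and 37.1 CPM in wild type. ADCY3∆AT replicate 2 lay within the wild-type values, and the other ADCY3∆AT libraries lay above them. The log2 fold change was 0.22 ± 0.09 (SE), with an edgeR unadjusted p of 0.0477 and adjusted p = 0.445. The unadjusted edgeR p-value was above the threshold when any of 4 libraries was left out. It was 0.160 without ADCY3∆AT replicate 1 (log2 fold change 0.16), 0.117 without ADCY3∆AT replicate 3 (0.19), 0.0531 without wild type replicate 1 (0.26) and 0.158 without wild type replicate 2 (0.15). Jun shares 232 exonic bases with its antisense neighbour Junos, which had 0.765 to 0.990 CPM in ADCY3∆AT and 0.853 to 1.11 CPM in wild type.

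Junb, a subunit that often restrains the activity of Jun (chromosome 8, 84974484 to 84978718, minus strand), had 14.6, 15.0 and 17.7 CPM in ADCY3∆AT and 15.5, 13.1 and 11.4 CPM in wild type. Wild type replicate 1 lay among the ADCY3∆AT values. Junb had a log2 fold change of 0.24 ± 0.12 (SE, edgeR adjusted p = 0.526). It was 0.15 without ADCY3∆AT replicate 3, 0.14 without wild type replicate 3 and 0.37 without wild type replicate 1. Junb shares 173 exonic bases with Prdx2, a peroxiredoxin gene on the opposite strand, whose levels were several times higher, at 91.5 to 99.7 CPM in ADCY3∆AT and 89.2 to 97.4 CPM in wild type. Prdx2 had a log2 fold change of 0.00 ± 0.06 (SE, edgeR adjusted p = 0.995).

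Atf3 (chromosome 1, 191170296 to 191218039, minus strand) had 7.83, 8.92 and 11.6 CPM in ADCY3∆AT and 10.9, 5.63 and 5.80 CPM in wild type. Wild type replicate 1 stood 1.87-fold above the next wild-type library and within the ADCY3∆AT range. Atf3 had a log2 fold change of 0.34 ± 0.26 (SE, edgeR adjusted p = 0.673), and without wild type replicate 1 it was 0.73 (unadjusted p = 0.00370, adjusted p = 0.273 in edgeR). Over the leave-one-out fits it ranged down to 0.17, without ADCY3∆AT replicate 3.

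Klf4 (chromosome 4, 55527143 to 55532466, minus strand) had 24.6, 21.8 and 28.0 CPM in ADCY3∆AT and 19.8, 19.8 and 24.0 CPM in wild type. Wild type replicate 3 lay above ADCY3∆AT replicate 2, so the groups overlapped. The log2 fold change was 0.23 ± 0.11 (SE, edgeR adjusted p = 0.505), and 0.13 without ADCY3∆AT replicate 3, with 0.18 to 0.32 when another library was left out. Ier2 (chromosome 8, 84661331 to 84662852, minus strand) had 9.10, 8.11 and 10.3 CPM in ADCY3∆AT and 8.60, 6.63 and 8.57 CPM in wild type. Its groups overlapped as well, with ADCY3∆AT replicate 2 below 2 of the wild-type libraries. The log2 fold change of Ier2 was 0.20 ± 0.13 (SE, edgeR adjusted p = 0.618). Without ADCY3∆AT replicate 3 it was 0.11, and without wild type replicate 2 it was 0.092.

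Dusp1 (chromosome 17, 26505590 to 26562128, minus strand) was the only tested member without a positive fold change. It had 24.6, 26.1 and 29.999 CPM in ADCY3∆AT and 31.9, 25.7 and 24.2 CPM in wild type. The highest library was wild type replicate 1, and the groups were interleaved. The log2 fold change was -0.02 ± 0.11 (SE, edgeR adjusted p = 0.967), and its sign turned when ADCY3∆AT replicate 1, ADCY3∆AT replicate 2 or wild type replicate 1 was left out. Dusp1 shares 11 exonic bases with Ergic1.

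Library order was read across the members. The lowest library was a wild-type one for 9 of 9 tested members, against 48.6% of all genes, and the highest was an ADCY3∆AT one for 8 of 9, against 51.8%. Wild type replicate 2 was the lowest of the 6 for 5 of 9, namely Fos, Jun, Egr1, Atf3 and Ier2, against 18.5% of all genes. Within wild type, replicate 1 was the highest for 7 of 9, against 33.7%. In ADCY3∆AT the extremes were divided: replicate 1 was the highest of the 6 for Fos, Jun and Egr1 (3 of 9, against 19.3% of all genes), and for Fosb, and replicate 3 for Junb, Atf3, Klf4 and Ier2 (4 of 9, against 15.7%). The range between the highest and lowest library was at least 2-fold in log2 CPM for 3 of 9 (Egr1, Fos and Atf3), against 19.3% of all genes.

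**Figure D3:**
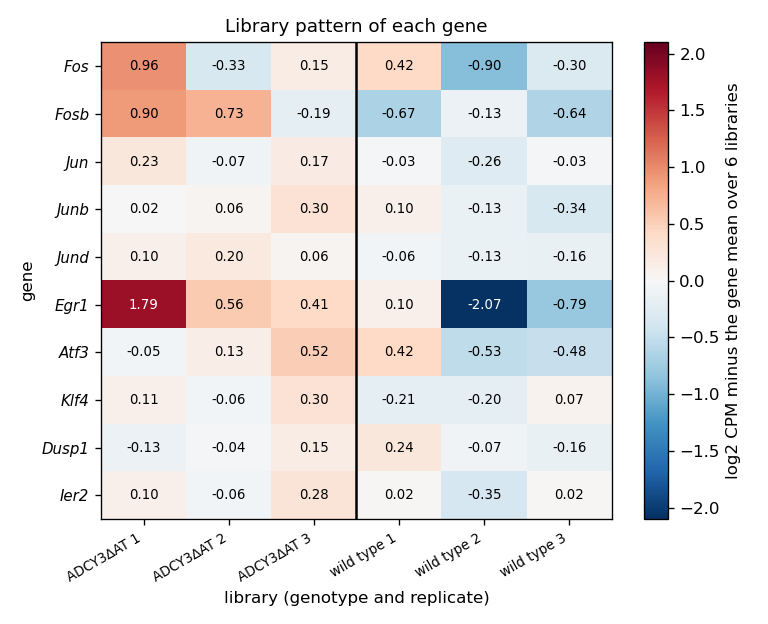
Log2 CPM of each gene in each library after subtraction of the mean of that gene over the 6 libraries, with ADCY3∆AT libraries to the left of the line and wild type to the right. Egr1 spans from 1.79 in ADCY3∆AT replicate 1 to -2.07 in wild type replicate 2, while every value of Jund lies within 0.20 of its mean.

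Other transcripts also stood apart in single libraries. In ADCY3∆AT replicate 1, where Egr1, Fos and Fosb were highest, the inducible heat shock gene Hspa1a had 36.0 CPM, against 4.19 and 3.53 CPM in the other ADCY3∆AT libraries and 5.30, 5.84 and 4.03 CPM in wild type. Its near-identical copy Hspa1b, between which and Hspa1a reads are hard to divide, had 57.3 CPM there and 4.46 to 10.7 CPM elsewhere. The co-chaperone Dnajb1 had 50.7, 29.8 and 28.2 CPM in ADCY3∆AT and 27.9, 24.8 and 25.4 CPM in wild type. Of 10 heat shock genes tested 0 passed in edgeR or limma voom, and 0 passed in DESeq2, which gave Hspa1a and Hspa1b no adjusted p, with Dnajb1 higher and Hspe1 lower at an unadjusted p under 0.05 in edgeR, and 3 of the 10 had a positive fold change. The summed level of the list was 3668, 2815 and 2766 CPM in ADCY3∆AT and 3031, 3983 and 3391 CPM in wild type, so wild type replicate 2, the lowest for Egr1, was the highest for this sum. The part of the heat shock transcripts in the Egr1 and Fos values was not tested.

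Macrophage markers, taken as a sum, had their own library order, close to that of Atf3. The summed level of 8 markers was 111, 169 and 160 CPM in ADCY3∆AT and 157, 95.2 and 110 CPM in wild type. ADCY3∆AT replicates 2 and 3 and wild type replicate 1, highest for this sum, were also the libraries with the highest Atf3. The same libraries were highest for Junb and Dusp1, so this order was not particular to Atf3. Lyz2 and Mrc1 gave most of the macrophage sum. Each macrophage marker apart from Itgax and Cd14 had these libraries highest. Itgax was lowest in wild type replicate 1 (0.747 CPM), and Cd14 was lowest in ADCY3∆AT replicate 3 (1.36 CPM). Of the 8 genes 0 passed in edgeR, DESeq2 or limma voom, and Itgax alone had an unadjusted p under 0.05 in edgeR (log2 fold change 0.97 ± 0.26, SE). Endothelial markers summed to 953, 1007 and 1019 CPM in ADCY3∆AT and 953, 884 and 918 CPM in wild type. Of 6 endothelial genes 0 passed in edgeR or limma voom, and Cdh5 passed as higher in DESeq2. At an unadjusted p under 0.05 in edgeR 4 were higher, against 5.23% of all genes. Kdr, the largest part of the sum, and Emcn had negative log2 fold changes of -0.04 ± 0.07 and -0.07 ± 0.07 (SE). No marker of either list was at 0 in any library. The part of these cell types, and of the lower muscle transcripts in ADCY3∆AT, in the values of the members was not tested.

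**Figure D4:**
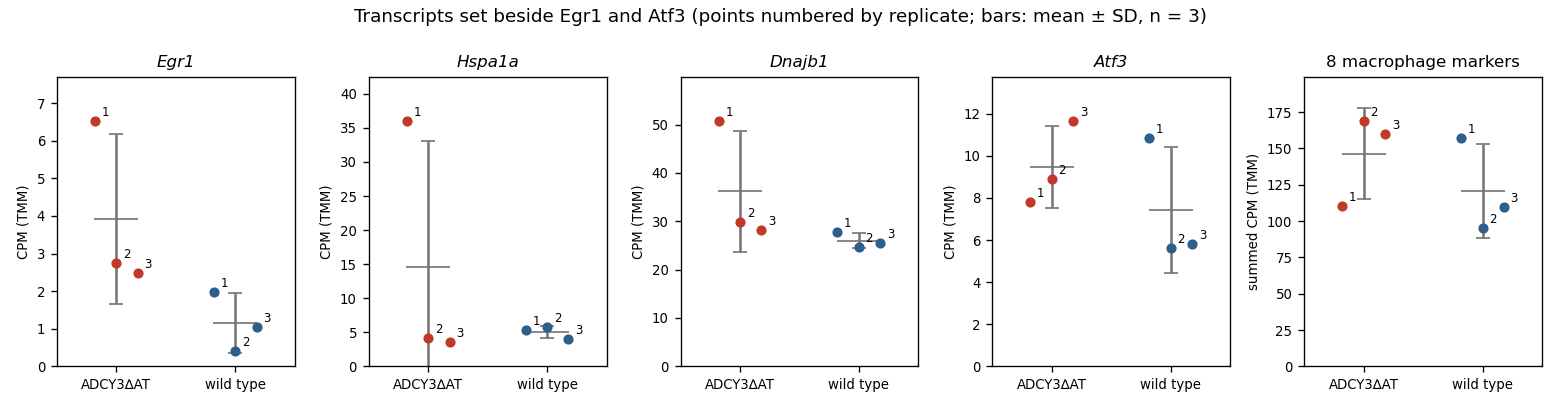
CPM of Egr1, Hspa1a, Dnajb1 and Atf3 and the summed CPM of 8 macrophage markers in each library, with points numbered by replicate, ADCY3∆AT on the left, and the mean ± SD of 3 libraries as bars (for Hspa1a the bar is clipped at 0). ADCY3∆AT replicate 1 is highest for Egr1, Hspa1a and Dnajb1, and wild type replicate 1 lies with the ADCY3∆AT libraries for Atf3 and near the top for the macrophage sum.

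A further 42 immediate early genes were set beside the members, of which 40 were tested. None passed in edgeR or limma voom, and Klf2 passed in DESeq2. At an unadjusted p under 0.05 in edgeR 9 were higher and 3 lower, where 5.23% of all genes were higher and 5.78% lower. Of the 40, 26 had a positive fold change, against 50.9% of all genes. The median log2 fold change was 0.10, against 0.00 over all genes. The lowest p-value belonged to Klf2, a zinc-finger factor related to Klf4 and well known in endothelium. Klf2 had 13.9, 14.5 and 17.6 CPM in ADCY3∆AT and 10.6, 10.4 and 10.6 CPM in wild type, so its groups stood clearly apart. Its log2 fold change was 0.54 ± 0.10 (SE, edgeR adjusted p = 0.158, DESeq2 adjusted p = 0.00239).

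Rhob, a small GTPase, had 88.1, 87.0 and 87.2 CPM in ADCY3∆AT and 76.8, 76.6 and 69.0 CPM in wild type (log2 fold change 0.24 ± 0.06, SE, edgeR adjusted p = 0.219). Plk2, a polo-like kinase, had 21.3, 21.3 and 23.5 CPM in ADCY3∆AT and 19.2, 15.6 and 18.7 CPM in wild type (0.30 ± 0.09, SE, edgeR adjusted p = 0.303). For both genes the groups did not overlap, and neither passed in DESeq2. The relatives of Egr1 were scarcer, and were named after their values had been seen. Egr2 had 0.634, 0.772 and 0.495 CPM in ADCY3∆AT and 0.383, 0.386 and 0.372 CPM in wild type. Egr3 had 0.241, 0.508 and 0.151 CPM in ADCY3∆AT and 0.182, 0.0454 and 0.219 CPM in wild type. Egr4 was listed at 0 in all 6 libraries.

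The 3 further immediate early genes at an unadjusted p under 0.05 and lower in ADCY3∆AT were Nr4a3, Nr4a2 and Crem. The nuclear receptor Nr4a3, named after its values had been seen, had 1.38, 2.24 and 2.80 CPM in ADCY3∆AT and 3.74, 6.06 and 3.00 CPM in wild type (log2 fold change -0.99 ± 0.32, SE, edgeR adjusted p = 0.329). Wild type replicate 2, the lowest library of Egr1, was the highest of Nr4a3. Crem, whose short forms repress CREB targets, had 11.4, 12.96 and 15.2 CPM in ADCY3∆AT and 16.8, 17.5 and 14.9 CPM in wild type (-0.32 ± 0.11, SE, edgeR adjusted p = 0.365). The groups of Crem overlapped.

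**Figure D5:**
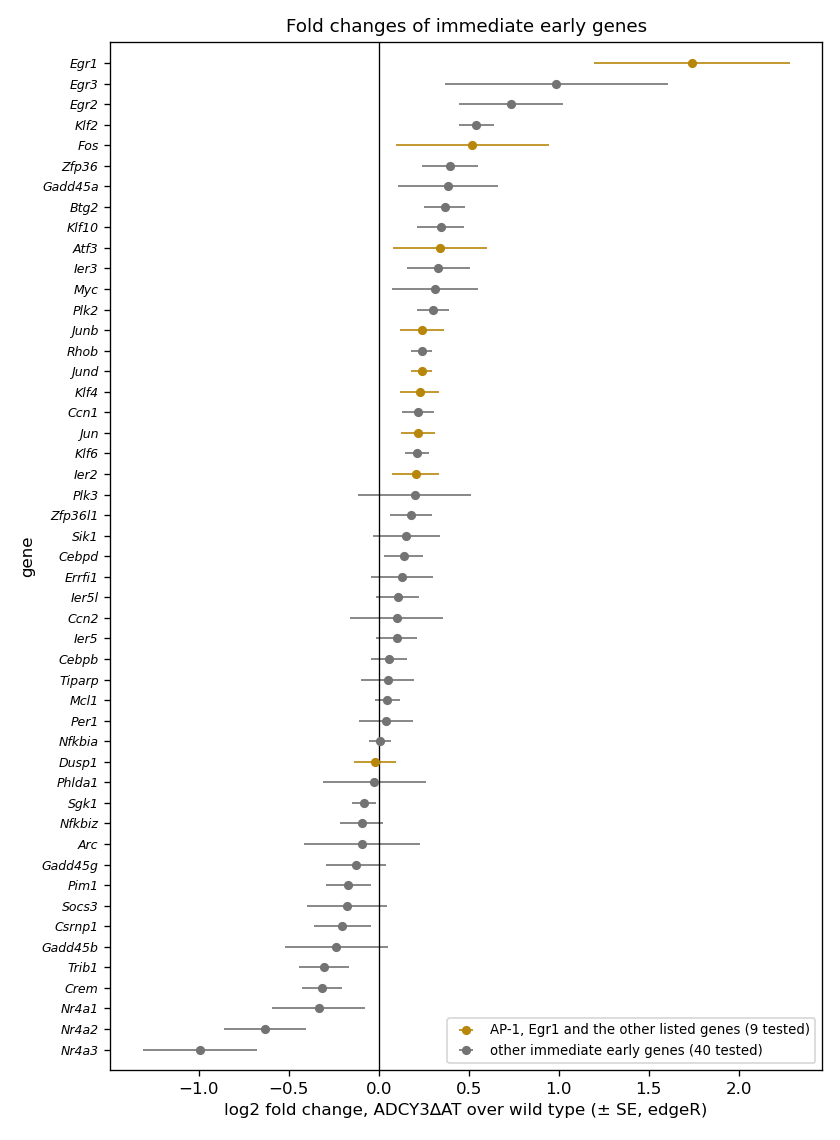
Log2 fold change of ADCY3∆AT over wild type with its SE (edgeR, n = 3 each) for the 9 tested members and 40 further immediate early genes, in order of size. Egr1 lies highest at 1.74 and Nr4a3 lowest at -0.99, and no gene shown passed an adjusted p of 0.05 in edgeR.

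The dimer partners and relatives of AP-1 differed little. Of 12 listed genes 11 were tested and 0 passed in edgeR, DESeq2 or limma voom. Jdp2, which represses AP-1 sites, and Mafk, a small Maf protein, were higher at an unadjusted p under 0.05 in edgeR, with log2 fold changes of 0.24 ± 0.10 and 0.24 ± 0.10 (SE). Jdp2 had 10.7, 11.4 and 10.8 CPM in ADCY3∆AT and 10.4, 9.20 and 8.25 CPM in wild type. Atf2, a partner of Jun, had -0.12 ± 0.06 (SE). The third-lowest p-value of the list was that of Atf2, and the median log2 fold change was 0.11.

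Phosphatases that feed back on MAP kinases, relatives of Dusp1, went both ways. Of 10 listed genes 9 were tested and 0 passed in edgeR, DESeq2 or limma voom. Dusp8 had 7.68, 9.16 and 5.55 CPM in ADCY3∆AT and 5.23, 4.36 and 5.05 CPM in wild type (log2 fold change 0.61 ± 0.18, SE). Dusp10 had 29.1, 26.6 and 22.9 CPM in ADCY3∆AT and 23.5, 16.5 and 18.9 CPM in wild type (0.41 ± 0.13, SE). Dusp5, a nuclear phosphatase of ERK, had 0.831, 1.65 and 1.66 CPM in ADCY3∆AT and 2.06, 2.43 and 2.03 CPM in wild type (-0.65 ± 0.27, SE). The edgeR adjusted p-values of Dusp8, Dusp10 and Dusp5 were 0.303, 0.333 and 0.426.

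The factors and kinases upstream were near even. Of 11 genes of serum response factor, its ternary complex partners and the CREB family 0 passed in edgeR, DESeq2 or limma voom, with a median log2 fold change of 0.04. Besides Crem, the lowest p-values were those of the CREB relative Atf1 (0.16 ± 0.07, SE) and of Elk3 (0.15 ± 0.08, SE). Of 22 genes of the MAP kinase cascade 0 passed in any of these tools, with a median of -0.01. Map2k3 had -0.40 ± 0.12 (SE) and Map2k6 0.64 ± 0.22 (SE), both kinases of p38. Nab2, a corepressor that Egr1 is known to induce and that binds it, had 6.41, 7.32 and 6.31 CPM in ADCY3∆AT and 4.88, 5.36 and 5.40 CPM in wild type. The groups of Nab2 did not overlap, with a log2 fold change of 0.36 ± 0.11 (SE, edgeR unadjusted p = 0.00956, adjusted p = 0.305). Its relative Nab1 had a log2 fold change of -0.02 ± 0.06 (SE, edgeR adjusted p = 0.925).

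The genes most like Fos and Egr1 over the 6 libraries were found by the root mean square difference of log2 CPM, each gene centred on its own mean. The members themselves were left out of this search, which covered the other tested genes with a symbol. For Fos these were Gm43062 (0.12), Gm19236 (0.18), Rspo1 (0.22), Fgf14 (0.22) and Stac (0.24). For Egr1 the likeness was weaker, with Efcab8 (0.48), Fam124b (0.55), Gm14548 (0.60), Gabbr2 (0.61) and 1700108F19Rik (0.65). All of these genes except Fgf14, which reached 2.06 CPM in ADCY3∆AT replicate 1, lay below 1 CPM in every library. None of the further immediate early genes tested was among the 5 nearest to either, and the members could not appear there.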

How the data were processed

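The authors deposited unnormalised estimated counts, 1 row per Ensembl gene. The submitters' processing notes list Salmon, StringTie, edgeR and GRCm38 but give no version and no role. Of its rows 54131 matched a GENCODE M21 (GRCm38) symbol and 254 did not. Column headers were matched to the sample descriptions. The design text calls the depot inguinal, and every sample label calls it interscapular, which is followed here.

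Estimated counts were rounded, filtered with filterByExpr (minimum count 10), scaled with TMM and tested with edgeR 4.0.16 (R 4.3.3) on genotype alone, with Benjamini-Hochberg adjustment over the 18114 genes kept. DESeq2 1.42.0 and limma 3.58.1 were alternatives. Log2 CPM used a prior count of 2. Exon lengths merge all GENCODE transcripts of a gene.

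Members and lists were chosen with earlier results of these data known. The text names all members, the 3 lowest p-values of each list, and the 5 genes nearest to Fos and Egr1; other names were chosen after their values were seen, and some results under this rule are not reported here. Over all genes tested, same-numbered libraries did not deviate together from their group means (correlations -0.0857, -0.128 and -0.0864). This was not computed for the members alone.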

Additional observations from a re-analysis of the deposited data

How the results depend on the processing

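No member passed an adjusted p of 0.05 in edgeR, and none did under any alternative run. Of 126 member fold changes under an alternative, 123 kept their sign. The other 3 were those of Dusp1, -0.02 as reported, which was 0.0383 without ADCY3∆AT replicate 1, 0.00112 without ADCY3∆AT replicate 2 and 0.111 without wild type replicate 1, and which ranged from -0.105 to 0.111 over the fits that leave out 1 library. The count of members at an unadjusted p under 0.05, 3 of 9 as reported, was 6 of 10 without a low-count filter (Fosb, Jun, Junb, Jund, Egr1 and Klf4), against 8.39% of all genes. When a library was left out it was 1 to 4 of the 9 or 10 members tested, against 7.2% to 14% of all genes. It was 1, Jund, without ADCY3∆AT replicate 1, where 9.39% of all genes had such a p. Members whose groups do not overlap numbered 2, and 2 to 5 when a library was left out, with 5 of 9 without ADCY3∆AT replicate 2, where 23.6% of all genes had groups that do not overlap; over these fits that share was 23.6% to 31.8%. Over all genes edgeR called 1, against 214 without a low-count filter, 232 in DESeq2, 2 in limma voom, 2 with robust estimation and 1 to 66 when a library was left out, with 66 without ADCY3∆AT replicate 3. The cause was not tested.

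With the replicate number as a block, which the labels do not tie to a shared litter, batch or day, edgeR called 3 genes and 5 members had an unadjusted p under 0.05 (Fos, Jun, Jund, Egr1 and Klf4), against 8.12% of all genes. Depth limits Fosb most, at 9 to 21 counts in ADCY3∆AT and 6 to 9 in wild type.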

Other observations

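Genes that glucocorticoids induce were also read, since they share inputs with the immediate early genes. Of 9 tested 0 passed in edgeR or limma voom, Zbtb16 passed in DESeq2, and it was the only one at an unadjusted p under 0.05 in edgeR. Zbtb16, a zinc-finger factor, had 56.99, 82.1 and 47.3 CPM in ADCY3∆AT and 32.1, 34.9 and 29.8 CPM in wild type (log2 fold change 0.95 ± 0.18, SE, edgeR adjusted p = 0.158, DESeq2 adjusted p = 0.0183). Log2 fold changes were 0.43 ± 0.20 for Fkbp5 and 0.25 ± 0.11 for Tsc22d3 (SE). Over the 9 genes 5 fold changes were positive and 4 negative, with a median log2 fold change of 0.04.

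In the marker lists of other cell types no gene passed in edgeR or limma voom. At an unadjusted p under 0.05 in edgeR, 2 of 4 tested B cell genes were higher (Ms4a1 and Ighm) and 9 of 10 skeletal muscle genes were lower. Over all genes 5.23% were higher and 5.78% lower at such a p. None of 2 T cell, 3 neutrophil, 5 fibroblast, 6 mural and 5 erythroid genes tested had such a p. Of 9 brown adipocyte genes Pdk4 was higher and Elovl3 and Dio2 lower at that level. In DESeq2 Elovl3 and Tnni1 passed as lower, and no gene of the B cell, T cell, neutrophil, fibroblast, mural or erythroid lists did.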
